A study of Homo sapiens with 4 samples.

Results

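The genes described here are the heat-shock proteins, the J-proteins and the subunits of the chaperonin CCT, as MIA PaCa-2 cells expressed them with and without IL-1β. Members were chosen by symbol. The rule took every probe annotated to a single gene whose symbol begins with HSP and then A, B, D, E or H, with HSP90, with DNAJ, or with CCT and a digit, and left out 6 chaperones of the endoplasmic reticulum (HSPA5, HSP90B1, DNAJB9, DNAJB11, DNAJC3 and DNAJC10). Of 119 such probes for 79 genes on the array, 70 probes for 56 genes were detected on at least 2 of 4 arrays and were tested, out of 13152 probes for 8862 named genes tested in all. The set was named for cytosolic chaperones, but the rule goes by spelling and also took proteins known to reside in mitochondria (HSPA9, HSPD1, HSPE1, DNAJA3, DNAJC15 and DNAJC19) or in the membrane of the endoplasmic reticulum (DNAJB12, DNAJB14 and DNAJC1). HSPBP1 and HSPBAP1, which are no small heat-shock proteins, joined the HSPB group by their first letters only.

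MIA PaCa-2 is an established human cell line from a pancreatic carcinoma, grown in serum-containing medium, and IL-1β is an inflammatory cytokine that signals through the IL-1 receptor to NF-κB. The control group was 2 samples of untreated cells and the other group was 2 samples of cells given 2 ng/ml IL-1β for 36 h, each measured on 1 Illumina WG-6 version 3 array. All 4 samples came from 1 line at 1 dose and 1 time, no heat-treated sample was analysed here, and the labels leave unsaid whether the replicates were cultured separately. The p-values therefore rest on a spread that may be technical only.

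Chaperones keep other proteins from clumping and help them fold. HSP70 proteins bind unfolded stretches in a cycle of ATP hydrolysis. J-proteins (the DNAJ families) bring them clients and start hydrolysis through the J domain, and HSP110 proteins and other exchange factors release the nucleotide. HSP90 takes over clients such as kinases and steroid receptors, small heat-shock proteins hold unfolded proteins without ATP, and the ring-shaped chaperonin CCT folds actin and tubulin. Many of these genes are targets of the transcription factor HSF1, which binds heat-shock elements in their promoters under proteotoxic stress. Cancer cells are known for high levels of several of them.

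Between 12740 and 13157 of 48803 probes were detected per array, or 26.1% to 27.0%, with raw intensities that averaged 527 and 549 over the probes of the control arrays against 482 and 449 with IL-1β. All levels below are log2 intensities after background correction and quantile normalization, and all differences are IL-1β minus control on that scale. A level can be set against the same gene's level on another array, not against another gene's. Adjusted p-values come from limma over all 13152 probes tested, and ranges after a fold are 95% confidence intervals. Of the markers of the line, KRT8, KRT18, KRT19 and VIM were detected, while KRT7, EPCAM and CDH1 were not tested because too few arrays detected them. Of 15 markers of other cells, 4 were tested (CD14, CD68, CDH5 and COL1A2), and PTPRC, CD3E, PECAM1, VWF, COL1A1, DCN and all acinar and islet markers were not. With IL-1β, CD68 differed by 0.31, CD14 by -0.08, CDH5 by -0.0099 and COL1A2 by -0.24, and of the line's own markers KRT18 differed by -0.24, KRT8 by -0.21, KRT19 by -0.20 and VIM by 0.0044. None passed the test, and their part in the results below was not tested.

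No member gene passed the test between IL-1β and control cells. None of the 70 member probes had an adjusted p below 0.05 in limma, nor did any of the 13152 probes tested (0%). The smallest adjusted p among members was 0.123, for DNAJB4, which was not detected with IL-1β. Among member genes detected in both groups it was 0.142. At an unadjusted p under 0.05 there were 10 of 70 member probes (14.3%), against 18.5% of all probes. Read by its brightest tested probe, each gene gave 1 difference: 24 of 56 genes were higher and 32 lower with IL-1β, and the median was -0.03 against 0.0012 over all 8862 genes. Without the first IL-1β array the median of the members was 0.03. In bulk RNA such as this, fewer cells of a kind and less RNA per cell cannot be told apart.

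The differences were small. The middle of the distribution ran from -0.13 at the lower quartile to 0.07 at the upper, and the median size without regard to sign was 0.11, against 0.13 over all genes tested. In the fit reported, 50 of the 56 member genes (89.3%) had a 95% confidence interval within 1.5-fold in both directions. Larger changes lie outside the interval for these genes in that scaling. Such an interval was found for 76.4% of all genes, and by probe for 61 of 70 members (87.1%) against 74% of all probes. The share of probes whose IL-1β arrays both lay above or both below the control arrays was 57.1% among members (40 of 70), near the 50.7% over all probes. At least 1.5-fold apart as well were 3.05% of all probes and no member probe detected in both groups. DNAJB4 and DNAJC1 met this only by values at background with IL-1β. Both passed the filter through control alone and so had to be lower. Their control means lay 1.16-fold and 1.19-fold above the lowest detected signal on the IL-1β arrays, with no error on those means counted. Of the 54 genes detected in both groups, 24 were higher and 30 lower, and the median was -0.03.

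**Figure D1:**
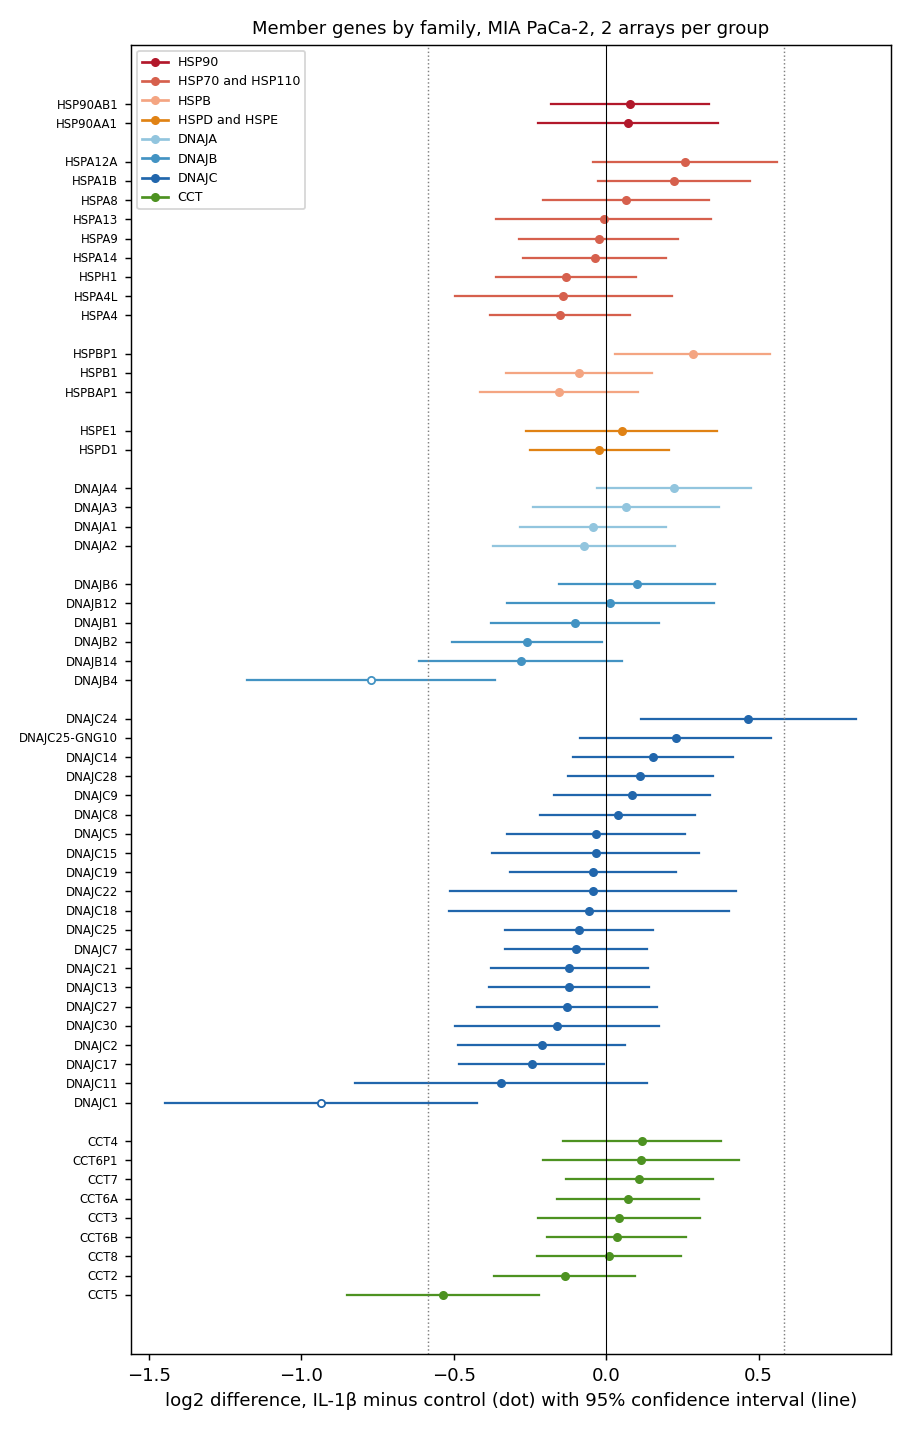
Log2 difference, IL-1β minus control, for each of the 56 member genes by family. Dots are the estimates from 2 arrays per group, lines are 95% confidence intervals, dotted lines mark 1.5-fold, and open dots mark DNAJB4 and DNAJC1, which were not detected on the IL-1β arrays. Most intervals include 0. The CCT genes other than CCT5 and CCT2 sit just right of 0 in this scaling (the CCT median was -0.17 under all-probe scaling). More J-protein genes sit left of 0 than right, but DNAJC24, furthest right, is one as well. DNAJC1 and DNAJB4, furthest left, passed the filter through control alone.

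The direction and size of these differences rest on how the arrays are scaled. Intervals within 1.5-fold were counted in the fit reported only. Quantile normalization gives all arrays the same distribution. Setting the arrays instead to the same median over all 48803 probes, called all-probe scaling below, moved the median of all tested genes to -0.22, and the split of the members from 24 higher and 32 lower to 5 higher and 51 lower. Under that scaling alone did member probes pass the test, all lower: CCT5 (adjusted p = 0.0434), DNAJB4 (0.0372), DNAJC1 (0.0409) and the dimmer probe of CCT3 (0.0468), among 919 probes over the array, of which 861 were lower. DNAJB4 and DNAJC1 were at background with IL-1β. The median of the members minus that of all genes was -0.0081 under that scaling. Over 6 scalings and background corrections, the main one included, 32 of the 56 member genes kept their sign (5 higher and 27 lower) and 24 turned. The 27 include DNAJB4 and DNAJC1, which passed the filter through control alone and so had to be lower. The HSP90 pair and the mitochondrial chaperonin pair were among those that turned, as were 7 of 9 CCT genes, while 15 of 21 DNAJC genes, 4 of 6 DNAJB genes and 7 of 9 HSP70 and HSP110 genes kept theirs. All-probe scaling left 84.0% of all tested genes lower, and the authors' series matrix values 64.3%, against 49.8% in the main fit. A gene lower in the main fit therefore tends to keep its sign, here and for the genes below. Genes keeping their sign were not counted over the whole array.

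**Figure D2:**
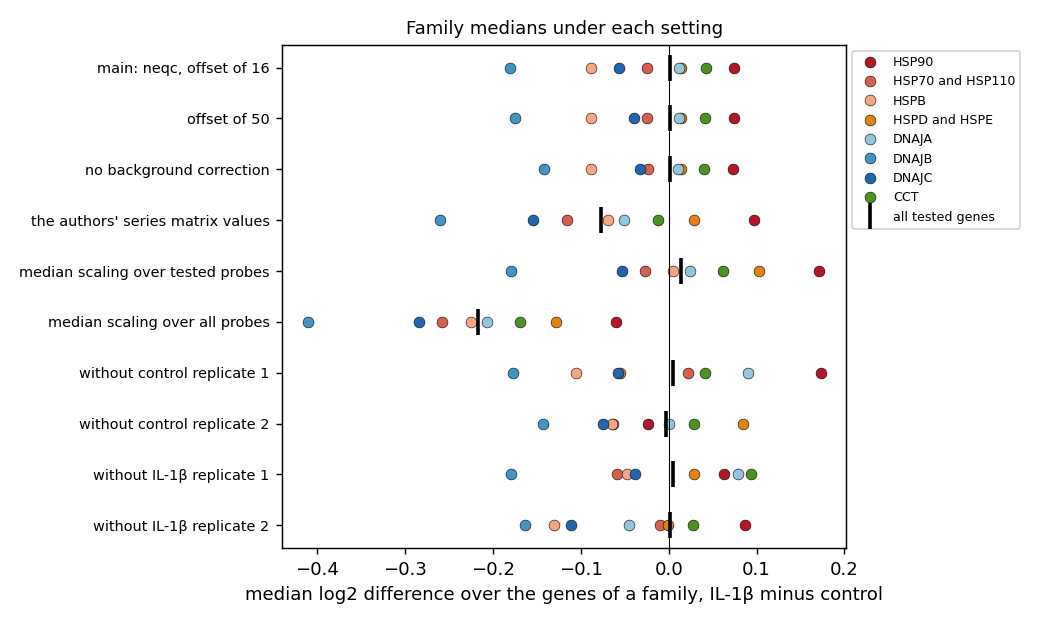
Median log2 difference over the genes of each family (coloured dots) under the settings named on the axis, with the median of all tested genes as a black bar. All-probe scaling moves every family and the black bar to the left together. Settings that change the detection filter are not drawn.

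Heat-shock elements were looked for in the promoters of the members, since HSF1 binds them, and the sequences that matched are shown here. The RefSeq promoter windows on GRCh38.p14 run from 250 bases before to 50 bases after a gene's start and were given for 50 of the 56 genes. A three-unit element, read as GAANNTTCNNGAA or TTCNNGAANNTTC, which covers both strands and can overlap itself, was found in 0.490% of all 35116 windows and in 0.608% of 27305 genes. Among members 6 of 50 genes (12.0%) had one: HSPA8, HSP90AA1, HSP90AB1, HSPD1, DNAJA1 and DNAJB6. Each match is written 5′ to 3′ on the strand of the gene, with the position of its first base counted from the start.
HSP90AA1 at -88: TTCCGGAAGGTTC
HSP90AB1 at -165: TTCTGGAAGATTC
HSP90AB1 at -112: TTCTGGAAGCTTC
HSPA8 at -230: GAAAGTTCCAGAA
HSPA8 at -55: TTCTGGAAGGTTC
HSPD1 at -245: TTCTGGAAAGTTC
HSPD1 at -240: GAAAGTTCTGGAA
DNAJA1 at 4: GAACTTTCCAGAA
DNAJB6 at -131: GAACCTTCGCGAA

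The paired matches of HSP90AB1 and HSPA8 lie apart in the window, while those of HSPD1 overlap. For the constitutive HSP70 gene HSPA8 and the inducible HSP90 gene HSP90AA1, both at the bright end of the array, the stretch around the matches is printed with the elements in capitals. It covers chr11:123062149-123062386 for HSPA8 and chr14:102087090-102087162 for HSP90AA1, both on the minus strand, and ends before the start of the gene.
HSPA8: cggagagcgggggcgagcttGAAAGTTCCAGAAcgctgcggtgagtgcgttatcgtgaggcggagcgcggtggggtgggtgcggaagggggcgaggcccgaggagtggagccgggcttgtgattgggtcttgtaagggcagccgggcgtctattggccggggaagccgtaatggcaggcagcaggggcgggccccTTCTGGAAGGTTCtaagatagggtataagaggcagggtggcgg
HSP90AA1: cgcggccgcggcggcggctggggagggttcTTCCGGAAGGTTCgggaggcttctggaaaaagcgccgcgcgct

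The 6 genes with a three-unit element differed between IL-1β and control by -0.04 (DNAJA1) to 0.10 (DNAJB6), with 4 higher and 2 lower and a median of 0.07, while under all-probe scaling all 6 were lower, with a median of -0.10. The shorter two-unit form, GAANNTTC or TTCNNGAA, which the three-unit form contains, was in 13.5% of all windows and in 17 of the 50 member genes (34.0%, against 16.2% of all genes). Of those 17, 8 were higher and 9 lower, and the median was -0.02. The NF-κB motif GGGANTTTCC, searched on both strands, was in 0.558% of all windows and in none of 71 member windows. A match is a run of letters and no measure of binding, and HSF1 itself, whose probe was dim, was 1.34-fold lower with IL-1β (range 1.85-fold lower to 1.03-fold higher, adjusted p = 0.310).

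Both cytosolic HSP90 genes had estimates close to no change, with intervals inside 1.5-fold. HSP90AA1, the stress-inducible form, read 14.005 and 13.77 in control and 14.005 and 13.92 with IL-1β. The groups overlapped, and the estimate was 1.05-fold higher (0.858 to 1.29-fold, adjusted p = 0.795), with a difference of 0.07 that turned to -0.0011 under all-probe scaling. HSP90AB1, the constitutive form, read 12.45 and 12.29 in control and 12.43 and 12.47 with IL-1β, 1.06-fold higher (0.881 to 1.26-fold, adjusted p = 0.745), a difference of 0.08 that turned to -0.12 under all-probe scaling. The groups overlapped here too, since the first control array lay between the IL-1β arrays. HSP90AA1 had 3 tested probes, and they disagreed in size, with differences of 0.07, 0.17 and 0.32 from the brightest to the dimmest.

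Among the HSP70 and HSP110 genes, 3 of 9 were higher and 6 lower, and the median was -0.02, and none passed the test. HSPA8, the constitutive cytosolic HSP70, read 13.17 and 13.01 in control and 13.09 and 13.21 with IL-1β. Its groups overlapped at 1.05-fold higher (0.866 to 1.26-fold, adjusted p = 0.805), and all-probe scaling turned the difference from 0.06 to -0.08. HSPA1B, a stress-inducible HSP70, read 10.85 and 10.86 in control and 11.005 and 11.14 with IL-1β. Both IL-1β arrays were above both controls, 1.17-fold on average (0.981 to 1.39-fold, adjusted p = 0.313). On the raw scale the order was the other way, with 2136 and 2250 in control against 2051 and 2057 with IL-1β, and under all-probe scaling the difference was 0.02. HSPA1A encodes nearly the same protein as HSPA1B, and its own probe was not detected, so the HSPA1B probe may hold signal of both. HSPA6, the HSP70 gene known for near-silence outside stress, was not detected on enough arrays to be tested.

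HSPA12A, a distant relative of HSP70, read 8.93 and 8.72 in control and 9.001 and 9.17 with IL-1β, 1.20-fold higher (0.970 to 1.48-fold, adjusted p = 0.329). Its difference of 0.26 was 0.013 under all-probe scaling, and ranged from 0.16 to 0.36 on leaving out 1 array. Its other 2 probes were not detected on any array. The mitochondrial HSP70 gene HSPA9 read 12.55 and 12.47 in control and 12.56 and 12.41 with IL-1β, 1.02-fold lower (1.22-fold lower to 1.18-fold higher, adjusted p = 0.926), a difference of -0.02 that turned to 0.02 when arrays were set to the same median over the tested probes. HSPA9 thus overlapped fully between the groups.

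The exchange factors of the HSP110 branch lay on the lower side. HSPA4 read 9.52 and 9.49 in control and 9.37 and 9.35 with IL-1β, 1.11-fold lower (1.30-fold lower to 1.06-fold higher, adjusted p = 0.440). HSPH1, known as HSP105, read 11.83 and 11.84 in control and 11.69 and 11.72 with IL-1β, 1.10-fold lower (1.28-fold lower to 1.07-fold higher, adjusted p = 0.502). In both genes the replicates agreed closely and the groups did not overlap, and both kept the negative sign over the 6 scalings, from -0.41 to -0.12 for HSPA4 and from -0.35 to -0.12 for HSPH1. HSPA4L, also of this branch, differed by -0.14 with overlapping groups (adjusted p = 0.656).

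**Figure D3:**
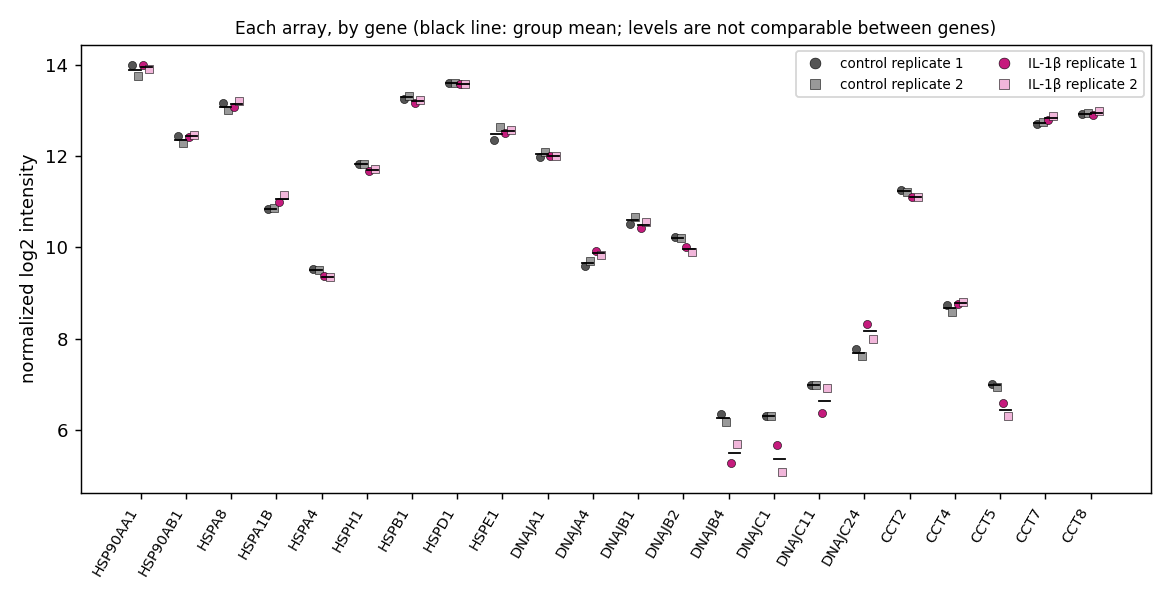
Normalized log2 intensity on each array for 22 member genes, with control replicates in grey, IL-1β replicates in pink and group means as black lines. Bright genes such as HSP90AA1, HSPB1 and HSPD1 show nearly equal group means, while the dim genes DNAJB4, DNAJC1 and CCT5 lie lower on both IL-1β arrays.

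HSPB1, the small heat-shock protein HSP27, had a bright probe and an interval inside 1.5-fold, with 13.27 and 13.32 in control and 13.16 and 13.25 with IL-1β. That is 1.06-fold lower (1.26-fold lower to 1.11-fold higher, adjusted p = 0.675), and the difference of -0.09 turned to 0.01 with the same median over tested probes. The groups did not overlap but nearly touched. It was the one true small heat-shock protein with a tested probe: HSPB2, HSPB3, HSPB6, HSPB7, HSPB8 and HSPB9 failed detection. HSPBP1, an exchange factor of HSP70 that shares only the letters, read 6.30 and 6.43 in control and 6.69 and 6.61 with IL-1β, 1.22-fold higher (1.02 to 1.45-fold, adjusted p = 0.238). Its difference of 0.28 was 0.11 under all-probe scaling and 0.11 without background correction. HSPBAP1, which binds HSPB1, differed by -0.16 (adjusted p = 0.479).

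The mitochondrial chaperonin HSPD1 and its lid HSPE1 did not pass the test either. HSPD1 read 13.61 on both control arrays and 13.59 on both IL-1β arrays, 1.02-fold lower (1.19-fold lower to 1.15-fold higher, adjusted p = 0.924). Quantile normalization works on ranks, and this probe had the same rank on both control arrays, whose raw intensities were 13335 and 13947 against 12043 and 11019 with IL-1β. The other probes of HSPD1 differed by 0.14 and 0.22, and the brightest probe turned from -0.02 to 0.10 with the same median over tested probes. HSPE1 read 12.36 and 12.64 in control and 12.52 and 12.58 with IL-1β, so both IL-1β arrays fell between the controls. The estimate was 1.04-fold higher (0.833 to 1.29-fold, adjusted p = 0.872), its difference of 0.05 turned to -0.12 under all-probe scaling, and a second probe gave -0.12.

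J-proteins made up 31 of the 56 genes, 10 higher and 21 lower, and the median was -0.06. The 21 include DNAJB4 and DNAJC1, which passed the filter through control alone and so had to be lower. The remaining 25 HSP and CCT genes were 14 higher and 11 lower, and the median was 0.04. No test of that contrast was made, and under all-probe scaling the medians of the 3 J-protein families and of CCT were all below 0.

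The DNAJA genes, whose proteins bind clients directly and hand them to HSP70, were split evenly, 2 higher and 2 lower, and the median was 0.01, or -0.21 under all-probe scaling. DNAJA1, a main partner of HSPA8, read 11.99 and 12.09 in control and 12.00 on both IL-1β arrays. The groups overlapped at 1.03-fold lower (1.22-fold lower to 1.15-fold higher, adjusted p = 0.862). DNAJA2, its close relative, read 12.18 and 11.95 in control and 11.93 and 12.05 with IL-1β, 1.05-fold lower (1.29-fold lower to 1.17-fold higher, adjusted p = 0.798). DNAJA4 stood somewhat apart from them: it read 9.60 and 9.71 in control and 9.93 and 9.83 with IL-1β, 1.17-fold higher (0.980 to 1.39-fold, adjusted p = 0.315), a difference of 0.22 that turned to -0.0044 under all-probe scaling. DNAJA3, a mitochondrial J-protein, differed by 0.07 with overlapping groups, and turned to -0.15 under all-probe scaling.

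The DNAJB genes had a median of -0.18, with 2 of 6 higher and 4 lower. The median was -0.10 with detection on all 4 arrays, which leaves out DNAJB4, and -0.051 without a filter, where that of DNAJC was -0.088. DNAJB1, the classical stress-inducible partner of HSP70, read 10.51 and 10.67 in control and 10.43 and 10.56 with IL-1β, 1.07-fold lower with overlapping groups (1.30-fold lower to 1.13-fold higher, adjusted p = 0.680). DNAJB6, which holds back the clumping of polyglutamine proteins, read 13.23 and 13.09 in control and 13.29 and 13.23 with IL-1β. Its estimate was 1.07-fold higher (0.898 to 1.28-fold, adjusted p = 0.657), and its 3 probes gave differences between 0.10 and 0.16, while all-probe scaling turned the brightest to -0.03.

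DNAJB4, a close relative of DNAJB1, was detected on both control arrays and on neither IL-1β array. It read 6.34 and 6.18 in control, and 5.28 and 5.69 with IL-1β, where it was at background. Its control mean lay 1.16-fold above the lowest signal among detected probes on the IL-1β arrays, with no error on that mean counted. DNAJB4 passed the filter through control alone and so had to be lower. The measured difference of -0.77 had an adjusted p of 0.123 in limma. A second DNAJB4 probe was not detected on any array. The raw intensities of the tested probe were 226 and 235 in control against 179 and 180 with IL-1β.

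DNAJB2, a J-protein that binds ubiquitin, read 10.22 and 10.21 in control and 10.02 and 9.90 with IL-1β, 1.20-fold lower (1.01 to 1.42-fold lower, adjusted p = 0.255). Its interval left out no change, and its sign held over the 6 scalings, from -0.50 to -0.23. DNAJB14, a J-protein of the endoplasmic reticulum membrane, read 8.52 and 8.31 in control and 8.26 and 8.02 with IL-1β, 1.21-fold lower (1.53-fold lower to 1.04-fold higher, adjusted p = 0.333). Its second probe gave a like difference of -0.32, with overlapping groups. For DNAJB12, of the same membrane, the probes disagreed, with 0.01 for the brighter, which turned to -0.20 under all-probe scaling, and -0.34 for the dimmer (adjusted p = 0.970 and 0.189).

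The DNAJC genes are the most mixed family, with the J domain attached to proteins of many functions. Of 21, 6 were higher and 15 lower, and the median was -0.06. An unadjusted p under 0.05 was found for 3 (14.3%, against 17.8% of all genes tested), among them DNAJC1, which was not detected with IL-1β. DNAJC24 had the largest positive difference of all members. It encodes a factor for making diphthamide, a modified residue of elongation factor EEF2. Its probe read 7.76 and 7.63 in control and 8.33 and 7.99 with IL-1β, 1.38-fold higher (1.08 to 1.76-fold, adjusted p = 0.191), and its sign held over the 6 scalings, from 0.23 to 0.47. The IL-1β replicates of DNAJC24 lay further apart than the controls did. DNAJC25-GNG10, a readthrough transcript of neighbouring genes, was 1.17-fold higher (0.942 to 1.46-fold, adjusted p = 0.400), a difference of 0.23 that was 0.011 under all-probe scaling and 0.11 to 0.34 on leaving out 1 array, while DNAJC25 itself was 1.06-fold lower (adjusted p = 0.686), and their probes may share targets.

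On the lower side, DNAJC1, a J-protein of the endoplasmic reticulum membrane that sits near ribosomes, passed the detection filter through the control arrays alone. It read 6.30 on both control arrays and 5.67 and 5.06 with IL-1β, where it was not detected. Its control mean lay 1.19-fold above the lowest detected signal on the IL-1β arrays, with no error on that mean counted. The measured difference of -0.93, which uses values at background, had an adjusted p of 0.128 in limma. DNAJC11, of the mitochondrial outer membrane, read 6.99 and 6.98 in control and 6.36 and 6.92 with IL-1β, 1.27-fold lower (1.77-fold lower to 1.10-fold higher, adjusted p = 0.403). The first IL-1β array was far below the controls and the second just below them. DNAJC17, known from splicing, was 1.18-fold lower (1.00 to 1.40-fold lower, adjusted p = 0.262).

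DNAJC7, which carries clients between HSP70 and HSP90, read 9.89 and 9.96 in control and 9.81 and 9.84 with IL-1β, 1.07-fold lower (1.26-fold lower to 1.10-fold higher, adjusted p = 0.628). DNAJC2, which with HSPA14 attends new chains at the ribosome, differed by -0.21 (adjusted p = 0.372) and HSPA14 by -0.04 (adjusted p = 0.873). DNAJC15 and DNAJC19, of the mitochondrial import motor, overlapped between groups and differed by -0.03 and -0.04. DNAJC9, a histone chaperone, and DNAJC8, a spliceosome protein, differed by 0.09 and 0.04, and turned to -0.13 and -0.15 under all-probe scaling. Each of these genes had an interval that includes no change. DNAJC28 was read by a probe at 12.94 and 12.85 in control and 13.00 and 13.01 with IL-1β, but 3 other DNAJC28 probes were not detected on any array.

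By count, the CCT genes were the family with most members on the higher side, 7 of 9, the pseudogene CCT6P1 included. By share, HSP90 was ahead, with both of its genes higher. The CCT median of 0.04 turned to -0.17 under all-probe scaling. The ring holds CCT subunits numbered from CCT2 to CCT8 together with TCP1. CCT4 read 8.75 and 8.59 in control and 8.76 and 8.81 with IL-1β, 1.09-fold higher (0.907 to 1.30-fold, adjusted p = 0.598). CCT7 read 12.71 and 12.75 in control and 12.79 and 12.89 with IL-1β, 1.08-fold higher (0.913 to 1.27-fold, adjusted p = 0.598), and the dimmest CCT7 probe gave -0.0027. In both, each IL-1β array was above each control array, but under all-probe scaling CCT4 turned to -0.12 and CCT7 to -0.08.

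CCT6A read 10.81 and 10.86 in control and 10.88 and 10.93 with IL-1β, 1.05-fold higher (0.894 to 1.24-fold, adjusted p = 0.737), and turned to -0.14 under all-probe scaling. CCT6P1 is a pseudogene of CCT6A whose probe may share its signal, and it differed by 0.12 with overlapping groups, or -0.098 under all-probe scaling. CCT8 read 12.93 and 12.95 in control and 12.91 and 12.99 with IL-1β, 1.01-fold higher (0.855 to 1.18-fold, adjusted p = 0.971), with a difference of 0.01 that turned to -0.17 under all-probe scaling. CCT2 lay on the other side, with 11.27 and 11.22 in control and 11.11 on both IL-1β arrays, 1.10-fold lower (1.29-fold lower to 1.07-fold higher, adjusted p = 0.488), and kept that sign over the 6 scalings.

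CCT5 had the largest difference among the subunits. It read 7.01 and 6.94 in control and 6.58 and 6.30 with IL-1β, 1.45-fold lower (1.16 to 1.80-fold lower, adjusted p = 0.142). The groups did not overlap and all 6 scalings gave a negative difference, from -0.73 to -0.22. Its probe was dim, with raw intensities of 278 and 296 against 233 and 201. CCT3 was read differently by its probes, since the brighter differed by 0.04 (adjusted p = 0.875) and the dimmer by -0.25 (adjusted p = 0.269), and the brighter turned to -0.18 under all-probe scaling. TCP1, the subunit whose symbol the rule does not take, read 10.55 and 10.77 in control and 10.50 and 10.75 with IL-1β, 1.02-fold lower with overlapping groups (adjusted p = 0.919). Of the ring, then, CCT5 alone had an unadjusted p under 0.05 by its brightest probe, against 17.8% of all genes tested. The dimmer CCT3 probe had an unadjusted p of 0.049 in limma.

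Genes with several probes gave a check within the array. More than 1 probe was tested for 10 member genes, and 5 of them had probes of opposite sign (CCT3, CCT7, DNAJB12, HSPD1 and HSPE1). The widest gap between probes of 1 gene was 0.36, for DNAJB12, and the narrowest 0.03, for HSPA8 and CCT6A. The median standard error was 0.11 for the difference of 1 probe. A gap carries the error of both probes, so it is expected to vary by more than that.

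The members were also counted by brightness, in the scaling reported. Of the 14 member genes among the dimmest 2216 genes tested (mean log2 intensity 5.68 to 7.46), 11 were lower with IL-1β, with a median of -0.13, against 49.7% lower among all genes of that range. Among the brightest 2216 genes (10.30 to 14.89) there were 23 members, of which 8 were lower, with a median of 0.05, against 50.7% lower among all. J-proteins accounted for 11 of the 14 dim members, 9 of them lower. These counts include DNAJB4 and DNAJC1, which passed the filter through control alone and so had to be lower. Without them 9 of 12 dim members were lower, with a median of -0.09, and 7 of 9 dim J-proteins. Of the 8 bright J-proteins, 3 were lower. Family and brightness therefore overlap in this set, and their parts cannot be told apart with these probes.

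**Figure D4:**
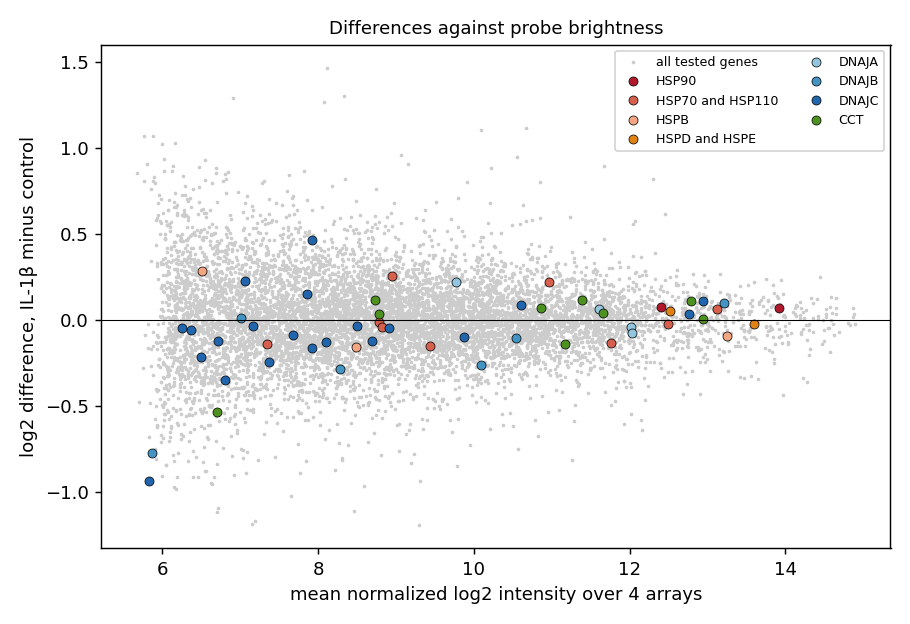
Log2 difference, IL-1β minus control, against mean log2 intensity over 4 arrays, for all 8862 genes tested (grey) and the 56 members by family (colours). The cloud narrows with brightness, and the members at the left edge include CCT5 below 0, and DNAJB4 and DNAJC1, which were not detected with IL-1β.

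The members at the edge of detection were few. A probe needed a detection p under 0.01 on 2 arrays. DNAJC22 was detected on 3 arrays, with a detection p of 0.0105 on the first IL-1β array, and DNAJB4 and DNAJC1 on 2. Just outside, DNAJC4 passed on the first control array alone, with a detection value of 0.00791, and a dim probe of DNAJB12 on the second IL-1β array alone, at 0.00791. Another 47 probes passed on no array. In all, 23 genes had no tested probe. They include the testis-expressed HSPA1L, DNAJB3, DNAJB7, DNAJB8 and DNAJB13, and the neuronal DNAJC6.

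In the fit reported, other genes of the folding machinery did not pass the test either. Their calls under the alternative settings are not given here. From a list of 49 regulators, prefoldins, exchange factors and partners of HSP70, HSP90 and CCT, 38 were tested, 17 higher and 21 lower, and the median was -0.03. Among them 6 had an unadjusted p under 0.05 (4 higher and 2 lower), or 15.8% against 17.8% of all genes tested. For 33 (86.8%) the interval lay within 1.5-fold, against 76.4% of all. CHORDC1, a co-chaperone of HSP90, had the largest difference: it read 9.29 and 9.12 in control and 8.43 and 8.41 with IL-1β, 1.72-fold lower (1.44 to 2.06-fold lower, adjusted p = 0.0870). The difference was larger than the SD of either group (0.12 in control and 0.02 with IL-1β), and its sign held over the 6 scalings, from -1.03 to -0.59. PPID, a cyclophilin that binds HSP90, led the other direction with 6.69 and 6.45 in control and 6.94 and 7.20 with IL-1β, 1.42-fold higher (1.11 to 1.80-fold, adjusted p = 0.173). Its probe was dim, with raw intensities of 251 and 253 in control against 257 and 258 with IL-1β. Its difference ranged from 0.22 to 0.53 over the 6 scalings. BAG3, a heat-inducible exchange factor, was 1.16-fold lower (1.42-fold lower to 1.06-fold higher, adjusted p = 0.409).

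The endoplasmic reticulum chaperones that the rule leaves out were tested for 5 of 6 genes, 4 higher and 1 lower, and the median was 0.22. DNAJC10 was higher by its brighter probe, at 0.24, while its dimmer probe gave -0.02 with overlapping groups. HSPA5, the HSP70 of that compartment, was 1.19-fold higher (1.00 to 1.40-fold, adjusted p = 0.265) and HSP90B1 1.10-fold higher (0.925 to 1.32-fold, adjusted p = 0.509), though under all-probe scaling they turned to -0.00086 and -0.029. The difference between these genes and the members was not tested.

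The authors deposited tables of selected probes. The authors' deposited table of group averages lists 1464 probes, 84.4% of them lower with IL-1β, and 6 member genes, all lower. In that table, control over IL-1β was 1.26 for DNAJB2, 1.23 for CCT3, 1.18 for HSPH1, HSPA4 and CCT2, and 1.14 for DNAJC7. Those averages were scaled by 1 factor per array with no background subtraction, and the CCT3 probe is the dimmer one. The authors' deposited score table has 1440 entries, 84.4% of them negative. It holds 8 entries for 7 member genes, all negative, from -44.5 for HSPH1 to -13.1 for DNAJC7, and adds DNAJB14 at -31.9. Neither table holds a member that is higher with IL-1β. By brightest probe, the smallest adjusted p in limma among these genes was 0.255, for DNAJB2.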

How the data were processed

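RNA of 4 samples was measured on Illumina arrays, 1 array per sample. The authors deposited linear probe intensities without background subtraction and a detection p-value per probe, per the file headers. Their deposited series matrix holds intensities with 1 constant subtracted and 1 factor applied per array, read from the values. The authors' deposited score table holds signed scores, with the formula not stated in the sources used.

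Background correction used limma 3.58.1 (R 4.3.3) and its neqc function (offset of 16, quantile normalization, log2). Probes with detection p under 0.01 on at least 2 of 4 arrays were tested with lmFit and eBayes, two-sided, with Benjamini-Hochberg adjustment over 13152 probes. The code was checked on simulated data. A gene was read by its brightest tested probe. Gene names came from the platform's table. The number of arrays limits the precision. All 56 symbols matched the RefSeq gene table, and 50 had a promoter window. Named genes were the 5 largest differences in each direction, each family's leading genes and a fixed set of well-known members. The members and lists were chosen with earlier results of these data known, and the motifs and further examples after values were seen. Alternatives changed the background correction, scaling, filter, variance model, probe averaging and pairing, or left out each array. Protein sequences were not used here.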

Additional observations from a re-analysis of the deposited data

How the results depend on the processing

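The precision is limited by 2 arrays per group and by probes near background. No member probe passed the threshold under any alternative except median scaling over all probes, which called 4 (CCT3 by its dimmer probe, CCT5, DNAJB4 and DNAJC1). Over all probes, 0 were called in the fit reported, and 91 with an offset of 50, 624 without background correction, 919 with median scaling over all probes, 10 with median scaling over tested probes, 66 with detection on all 4 arrays and 728 with trend and robust settings. The pairing check gave a correlation of -0.087 between same-numbered arrays. With 2 arrays per group it cannot settle whether same-numbered samples were handled together, and the labels leave this unsaid. The fit with the replicate block called 0 probes and left 24 member genes higher, with a median of -0.03.

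Median scaling over all probes left 5 member genes higher and gave medians of -0.23 over all members, -0.060 for HSP90, -0.26 for HSP70 and HSP110, -0.23 for HSPB, -0.13 for HSPD and HSPE, -0.21 for DNAJA, -0.41 for DNAJB, -0.28 for DNAJC and -0.17 for CCT. Among the genes named by rule it turned the sign of DNAJA4 (-0.0044), HSP90AB1 (-0.12), HSPE1 (-0.12), DNAJB6 (-0.032), CCT4 (-0.12), HSPA8 (-0.080), HSP90AA1 (-0.0011), CCT3 (-0.18), CCT6A (-0.14), CCT7 (-0.077), CCT8 (-0.17), HSPA5 (-0.00086) and HSP90B1 (-0.029). Median scaling over tested probes gave medians of 0.0054 over all members, 0.0052 for HSPB and 0.10 for HSPD and HSPE, and turned HSPD1 (0.10), HSPA9 (0.023) and HSPB1 (0.0052). With the authors' series matrix values the medians were -0.11 over all members, -0.12 for HSP70 and HSP110, -0.26 for DNAJB, -0.15 for DNAJC and -0.012 for CCT, and HSPD1 (0.024), CCT3 (-0.024) and CCT8 (-0.012) turned. Without a filter the medians were -0.018 for HSPB, -0.051 for DNAJB and -0.088 for DNAJC, and with detection on all 4 arrays -0.10 for DNAJB, since DNAJB4 then leaves the family. Averaging probes turned HSPE1 (-0.032), HSPD1 (0.11) and CCT3 (-0.10). The cause of the other moves was not tested.

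Leaving out 1 array at a time called 0 probes each time. The median ranged from -0.045 to 0.028 over all members (0.028 without the first IL-1β array), from -0.063 to 0.022 for HSP70 and HSP110, from -0.045 to 0.090 for DNAJA, from -0.11 to -0.039 for DNAJC and from 0.027 to 0.094 for CCT. Signs turned for HSP90AA1 (-0.043 to 0.19), HSP90AB1 (-0.0031 to 0.16), HSPA8 (-0.016 to 0.14), HSPA9 (-0.10 to 0.051), HSPE1 (-0.089 to 0.19), DNAJA1 (-0.092 to 0.0085), DNAJA2 (-0.19 to 0.042), CCT3 (-0.034 to 0.12), CCT8 (-0.030 to 0.049) and TCP1 (-0.16 to 0.091).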
